A study of Homo sapiens with 12 samples.

Results

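AP-1 is a family of transcription factors that bind DNA as pairs of basic leucine zipper proteins, and its subunits come from the JUN, FOS and BATF families. JUN proteins can pair with one another or with FOS proteins, whereas FOS proteins need a JUN partner. FOS, FOSB, JUN and JUNB are classical immediate early genes, switched on within minutes by mitogen-activated protein kinases after growth factors or stress, and BATF proteins, which lack a transactivation domain, pair with JUN proteins and bind together with IRF4 or IRF8 in lymphoid cells. The 10 subunits FOS, FOSB, FOSL1, FOSL2, JUN, JUNB, JUND, BATF, BATF2 and BATF3 were taken by symbol from the 43735 genes of the raw count table, and all 10 were listed. Of these, 9 passed the filter on low counts that left 14085 genes for testing, and BATF2 did not.

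RNA was sequenced from MM1S and MM1R, established multiple myeloma cell lines that derive from 1 patient and are labelled glucocorticoid sensitive and glucocorticoid resistant, respectively. Each line was left untreated (UT) or received 1 µM withaferin A (WA), a plant steroid lactone that reacts with cysteines, for 3 h, which gave 4 groups of 3 cultures. All cultures grew in RPMI-1640 with fetal bovine serum and antibiotics, and the sources used here do not say whether untreated cultures received the solvent of WA. MM1S cultures were of passages 16, 22 and 23 and MM1R cultures of passages 4, 6 and 7, with 1 untreated and 1 WA culture per passage, so that line and passage cannot be told apart.

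Total counts lay between 17625110 and 19368343 reads per culture. Plasma cell markers (SDC1, CD38, PRDM1, XBP1, IRF4, TNFRSF17 and JCHAIN, all 7 tested) summed to 8263 to 10643 CPM (CPM, read counts scaled to TMM-normalized library size) in MM1S and to 11352 to 17036 CPM in MM1R. JCHAIN made up most of these sums (5168 to 7379 CPM in MM1S and 8368 to 12669 CPM in MM1R). In untreated cells CD38 alone had a negative log2 fold change in MM1R against MM1S (-1.04). None of the 7 passed the limits used between lines below. The 10 markers of B cells, T cells, myeloid cells, fibroblasts and epithelium summed to 5.95 to 8.74 CPM in untreated MM1S, 8.69 to 14.2 CPM in MM1S with WA, 9.67 to 14.6 CPM in untreated MM1R and 15.2 to 27.3 CPM in MM1R with WA. Of these 10 markers only 3 had reads enough to be tested, CD3E (a T cell gene, 3.26 to 11.6 CPM), COL1A1 and EPCAM. Among the 3 only COL1A1, a fibroblast collagen gene, passed the test with WA, with log2 fold changes of 2.46 in MM1R and 2.78 in MM1S, and its part in the results below was not tested. In bulk RNA, more cells with a transcript and more transcript per cell cannot be told apart.

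Promoters of 8 of the 10 subunits were found in the RefSeq table and placed on GRCh37 by exact match. The 250 bases before the start site are shown for JUN and JUND, the most abundant subunits with a change under WA, and for FOSB, the subunit with the largest fitted change. Capitals mark matches to the motifs searched on both strands. In JUN (chr1:59249720-59249969, minus strand) these are GAATCTTC, a match to the heat shock element form GAANNTTC at -150 to -143, and TGACATCA, the JUN-type site known from this promoter, at -67 to -60 from the start. In JUND (chr19:18392433-18392682, minus strand) they are the cAMP response element TGACGTCA at -200 to -193 and 2 matches to the antioxidant response element TGACNNNGC, TGACCCGGC at -230 to -222 and GCGACGTCA, on the other strand, at -90 to -82. The FOSB window (chr19:45971004-45971253, plus strand) held none of the motifs.
JUN: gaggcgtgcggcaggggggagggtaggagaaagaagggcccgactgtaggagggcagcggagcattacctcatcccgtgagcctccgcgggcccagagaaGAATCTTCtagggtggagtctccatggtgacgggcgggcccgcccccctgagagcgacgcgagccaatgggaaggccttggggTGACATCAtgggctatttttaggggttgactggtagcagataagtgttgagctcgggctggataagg
JUND: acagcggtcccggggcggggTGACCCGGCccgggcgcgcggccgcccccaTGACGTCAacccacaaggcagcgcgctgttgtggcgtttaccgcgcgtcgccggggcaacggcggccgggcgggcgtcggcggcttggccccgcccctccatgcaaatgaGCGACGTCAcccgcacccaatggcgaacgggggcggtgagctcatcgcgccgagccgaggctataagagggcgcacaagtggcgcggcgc
FOSB: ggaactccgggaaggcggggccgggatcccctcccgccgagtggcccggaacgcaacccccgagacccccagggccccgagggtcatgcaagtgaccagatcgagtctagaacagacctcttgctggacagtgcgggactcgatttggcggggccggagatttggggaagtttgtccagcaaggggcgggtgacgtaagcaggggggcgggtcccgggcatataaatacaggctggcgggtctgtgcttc

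Among 35116 promoter windows of the same length, GAANNTTC was present in 5.78%, TGACATCA in 2.37%, TGACGTCA in 1.65% and TGACNNNGC in 10.9%. TGACATCA was also present in the window of BATF2, and GAAGTTTC, a match to GAANNTTC, in that of BATF. The AP-1 site TGANTCA (6.57% of windows), the second heat shock form TTCNNGAA (6.62%), the NF-kB site GGGACTTTC (0.325%) and the serum response element core CCATATTAG (0.0740%) were in none of the 8 windows. The windows of FOS, FOSL2 and JUNB held no match to any of the motifs either. Bases farther upstream than the windows were not searched for any subunit. A motif missing from a window, such as the serum response element core in FOS, may therefore still lie upstream of it. The windows of BATF2 (chr11:64757750-64757999, minus strand) and FOSL2 (chr2:28615475-28615724, plus strand) lay inside the gene spans of GENCODE (64755417 to 64764490 and 28615315 to 28640184). For these genes the RefSeq start site thus lies downstream of the outermost GENCODE start, and bases before the latter were not searched. These matches describe letters in the windows and are not evidence of binding.

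JUN, JUND, FOSB and FOSL2 were higher in MM1R after WA, 4 of the 9 tested subunits, and FOSL2 alone passed the test in MM1S. In MM1R, 7.55% of all tested genes were called higher and 6.46% lower at an adjusted p under 0.05. In MM1S the shares were 6.25% higher and 4.23% lower. No subunit was called lower in either line. The median log2 fold change over all tested genes was 0.01 in both lines.

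**Figure D1:**
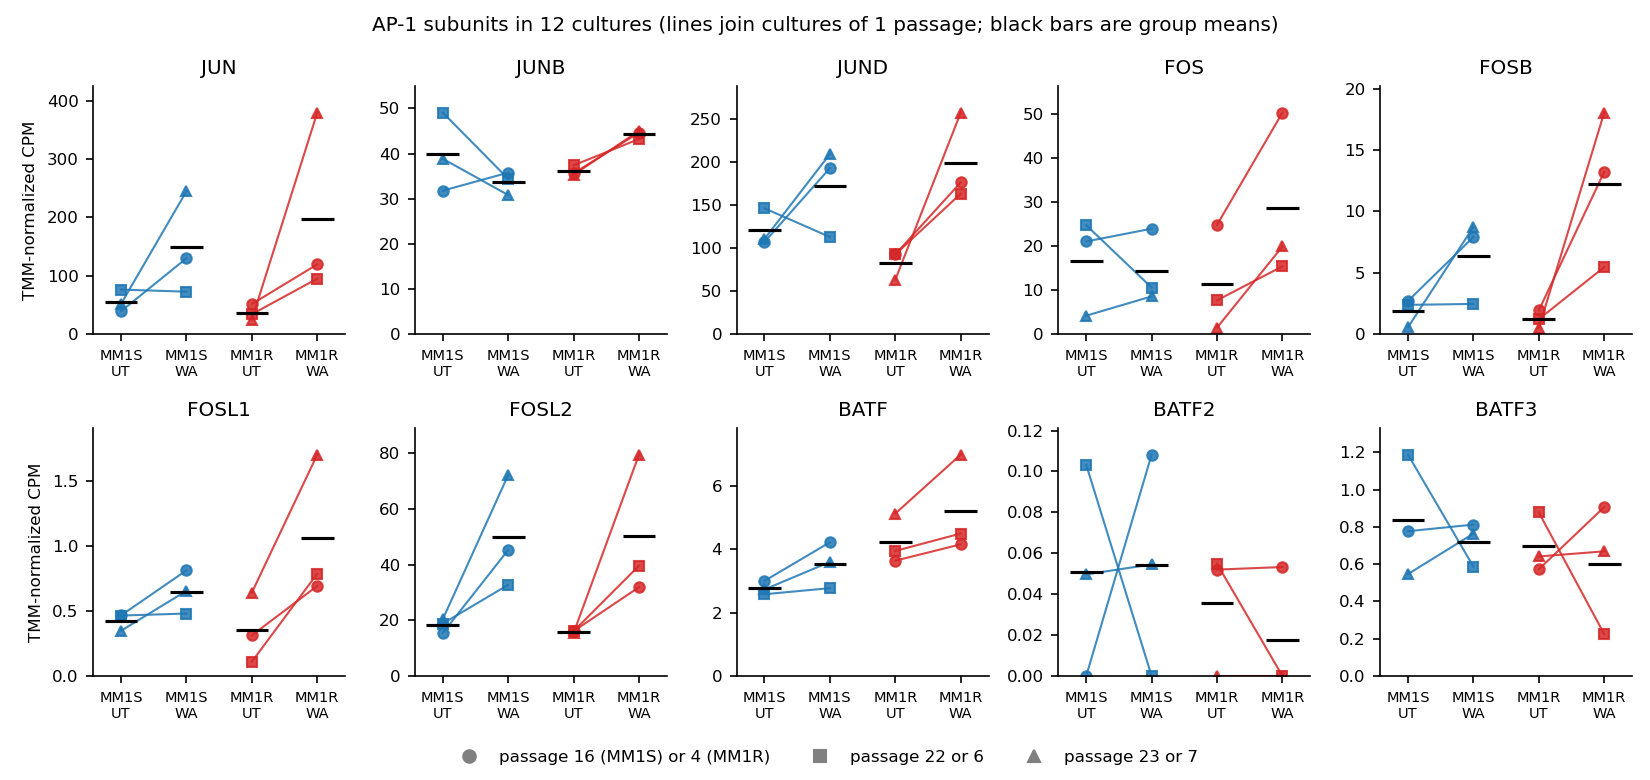
TMM-normalized CPM of the 10 AP-1 subunits in each of the 12 cultures (linear axes from 0), with lines joining the untreated (UT) and WA culture of the same passage and black bars at the group means. FOSL2 lay higher in all 6 WA cultures (31.9 to 79.6 CPM) than in the 6 untreated cultures (15.4 to 20.4 CPM), whereas JUNB moved little, and BATF2 stayed at 0 to 2 reads.

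JUN encodes the prototypic AP-1 subunit, which activates its own promoter. The gene lies on chromosome 1 (59242517 to 59249720, minus strand, GRCh37), and its reference (MANE) transcript has 1 exon. In untreated MM1R it measured 51.4, 34.0 and 24.8 CPM in passages 4, 6 and 7, and with WA 120, 95.0 and 380 CPM. All MM1R cultures with WA lay above all untreated ones, and the culture of passage 7 went from the lowest untreated to the highest treated value. The fitted change was 5.39-fold (95% confidence interval 2.46 to 11.8, log2 fold change 2.43, SE 0.53, adjusted p = 0.0081 by edgeR's quasi-likelihood test). In MM1S, JUN measured 39.1, 76.2 and 51.6 CPM untreated and 130, 72.7 and 245 CPM with WA in passages 16, 22 and 23. Here the groups overlapped, since passage 22 stayed level, and the log2 fold change of 1.42 (SE 0.51) had an adjusted p of 0.092.

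JUND, the subunit that is present in most cells without a stimulus, lies in 1 exon on chromosome 19 (18390504 to 18392432, minus strand). It measured 92.7, 92.7 and 63.2 CPM in untreated MM1R and 177, 163 and 258 CPM with WA (passages 4, 6 and 7). The groups did not overlap, and the fitted change was 2.40-fold (95% confidence interval 1.68 to 3.43, log2 fold change 1.27, SE 0.24, adjusted p = 0.0037). In MM1S it measured 107, 146 and 111 CPM untreated and 193, 113 and 210 CPM with WA (passages 16, 22 and 23). The passage 22 culture with WA lay within the untreated range, and the log2 fold change of 0.50 (SE 0.24) had an adjusted p of 0.21.

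JUNB, which often opposes JUN at shared sites, lies in 1 exon on chromosome 19 (12902300 to 12904129), where an exon of HOOK2 overlaps it on the other strand. Since the strand setting of the counting is not given in the sources used here, reads of both genes may not be separated. JUNB measured 35.6, 37.4 and 35.3 CPM in untreated MM1R and 44.6, 43.2 and 45.0 CPM with WA. These groups were tight and did not overlap, yet the log2 fold change was only 0.30 (SE 0.14) and did not pass the test (adjusted p = 0.17). In MM1S it measured 31.8, 49.1 and 38.9 CPM untreated and 35.8, 34.4 and 30.8 CPM with WA, with overlapping groups (log2 fold change -0.25, SE 0.14, adjusted p = 0.30).

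FOSB, an immediate early FOS protein on chromosome 19 (45971253 to 45978437, plus strand, 4 exons in the MANE transcript), had the largest fitted change of the 9 subunits in both lines. It measured 1.92, 1.21 and 0.466 CPM in untreated MM1R (8 to 37 reads) and 13.2, 5.45 and 18.1 CPM with WA (97 to 297 reads). The groups did not overlap, and the change was 10.0-fold (95% confidence interval 3.90 to 25.9, log2 fold change 3.33, SE 0.64, adjusted p = 0.0039). In MM1S it measured 2.69, 2.37 and 0.547 CPM untreated and 7.90, 2.45 and 8.73 CPM with WA. The lowest treated value fell inside the untreated range, and the log2 fold change of 1.77 (SE 0.60) had an adjusted p of 0.079. With passage number as a replicate block, the change in MM1S passed the test (log2 fold change 1.71, adjusted p = 0.033).

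FOSL2, encoding FRA-2, a FOS protein without the strong transactivation domain of FOS, lies on chromosome 2 (28615315 to 28640184, plus strand, 4 exons in the MANE transcript). It measured 16.1, 16.1 and 15.4 CPM in untreated MM1R and 31.9, 39.6 and 79.6 CPM with WA. In MM1S it measured 15.4, 18.8 and 20.4 CPM untreated and 45.3, 32.8 and 72.2 CPM with WA. No treated culture of either line overlapped an untreated one. The change was 3.16-fold in MM1R (95% confidence interval 1.98 to 5.07, log2 fold change 1.66, SE 0.32, adjusted p = 0.0038) and 2.75-fold in MM1S (1.73 to 4.38, log2 fold change 1.46, SE 0.31, adjusted p = 0.0097).

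FOS, the prototypic partner of JUN, was the subunit with the widest spread before treatment. It measured 24.9, 7.68 and 1.46 CPM in untreated MM1R, passages 4, 6 and 7, and 21.1, 24.8 and 4.17 CPM in untreated MM1S, passages 16, 22 and 23, a 17.1-fold range. With WA it measured 50.4, 15.4 and 19.9 CPM in MM1R and 24.0, 10.6 and 8.56 CPM in MM1S. FOS was higher in the WA culture in all 3 passages of MM1R, but the groups overlapped and the log2 fold change of 1.33 (SE 0.77) had an adjusted p of 0.29. With passage number as a replicate block it was 1.60 (adjusted p = 0.013). In MM1S the log2 fold change was -0.21 (95% confidence interval -1.85 to 1.42, adjusted p = 0.91). By comparison, untreated values spanned 5.77-fold for FOSB, 3.08-fold for JUN, 2.32-fold for JUND, 1.54-fold for JUNB and 1.32-fold for FOSL2.

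FOSL1, encoding FRA-1, rested on 2 to 28 reads per culture. It measured 0.312, 0.11 and 0.641 CPM in untreated MM1R and 0.693, 0.787 and 1.70 CPM with WA, and in MM1S 0.466, 0.465 and 0.348 CPM untreated and 0.812, 0.480 and 0.655 CPM with WA. By CPM the groups did not overlap in either line, but neither log2 fold change passed the test (1.57 in MM1R, SE 0.53, adjusted p = 0.063, and 0.60 in MM1S, SE 0.53, adjusted p = 0.54). In MM1S the WA culture of passage 22 and the untreated cultures of passages 16 and 22 each had 9 reads. That separation thus came from library scaling alone. With passage number as a replicate block, MM1R passed (log2 fold change 1.59, adjusted p = 0.011). FOSL1 passed the filter on low counts only through its WA cultures, which favours higher values with WA.

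BATF, which pairs with JUN proteins at composite sites with IRF4, measured 3.64, 3.95 and 5.13 CPM in untreated MM1R and 4.16, 4.50 and 6.99 CPM with WA. It measured 3.00, 2.58 and 2.73 CPM in untreated MM1S and 4.22, 2.77 and 3.60 CPM with WA. Each WA culture lay above the untreated culture of its passage, while the groups overlapped, with log2 fold changes of 0.30 in MM1R (adjusted p = 0.48) and 0.35 in MM1S (adjusted p = 0.44). BATF3, which rested on 4 to 23 reads per culture, lay between 0.225 and 1.19 CPM, with log2 fold changes of -0.21 in both lines. BATF2 had 0 to 2 reads in each culture, below the floor of 3 reads, and was given no fold change.

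**Figure D2:**
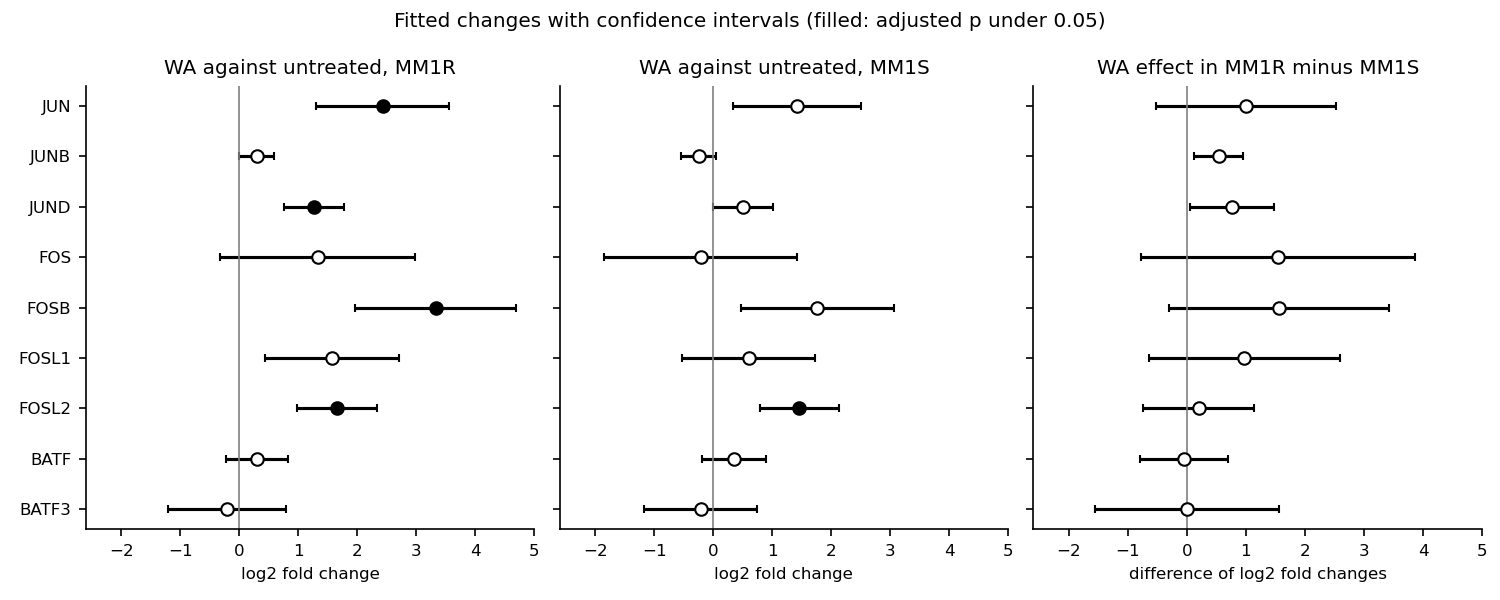
Log2 fold changes of the 9 tested subunits for WA against untreated cells in MM1R and MM1S, and the difference of the lines' log2 fold changes, with 95% confidence intervals from the edgeR fit of all 12 cultures (filled circles, adjusted p under 0.05). JUN, JUND, FOSB and FOSL2 were called in MM1R and FOSL2 in MM1S, and no difference between the lines was called.

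Counted by overlap of the cultures, 6 of the 9 subunits (JUN, JUNB, JUND, FOSB, FOSL1 and FOSL2) were higher in all WA cultures than in all untreated cultures of MM1R, against 17.3% of all tested genes. In MM1S, 2 of 9 (FOSL1 and FOSL2) were, against 16.4% of all tested genes. For FOSL1 this separation in MM1S came from library scaling of equal counts of 9 reads. FOSL1 had 2 to 11 reads in untreated cultures and passed the filter (minimum count 10) only through its WA cultures. Its place in both counts was thus partly fixed by the filter and is not read as a result. Without both passage 7 cultures, only FOSL2 remained called in MM1R (log2 fold change 1.17, adjusted p = 0.048), with 1.35 for JUN (adjusted p = 0.13), 0.90 for JUND (0.065) and 2.59 for FOSB (0.066). Removing only the WA culture of passage 7 kept JUN, JUND, FOSB and FOSL2 called in MM1R. Without only the WA culture of passage 22, JUN (1.75, adjusted p = 0.043), JUND (0.73, 0.046) and FOSB (2.15, 0.030) were called in MM1S beside FOSL2. Without both passage 22 cultures, JUND and FOSL2 were called in MM1S.

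The size of the change differed between passages. Passage 7 had the largest change among the MM1R pairs for JUN, JUND, FOS, FOSB and FOSL2, and passage 22 the smallest among the MM1S pairs for the same subunits. On the log2(CPM + 0.5) scale, JUN changed by 1.21, 1.47 and 3.91 in passages 4, 6 and 7 of MM1R and by 1.72, -0.07 and 2.24 in passages 16, 22 and 23 of MM1S. FOSB changed by 2.50, 1.80 and 4.26 in MM1R and by 1.40, 0.04 and 3.14 in MM1S. FOSL2 was higher with WA in every pair, by 0.96, 1.27 and 2.33 in MM1R and by 1.52, 0.78 and 1.80 in MM1S. FOS changed by 1.01, 0.96 and 3.38 in MM1R and by 0.18, -1.19 and 0.96 in MM1S. JUNB stayed between 0.21 and 0.35 in MM1R and between -0.51 and 0.17 in MM1S.

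**Figure D3:**
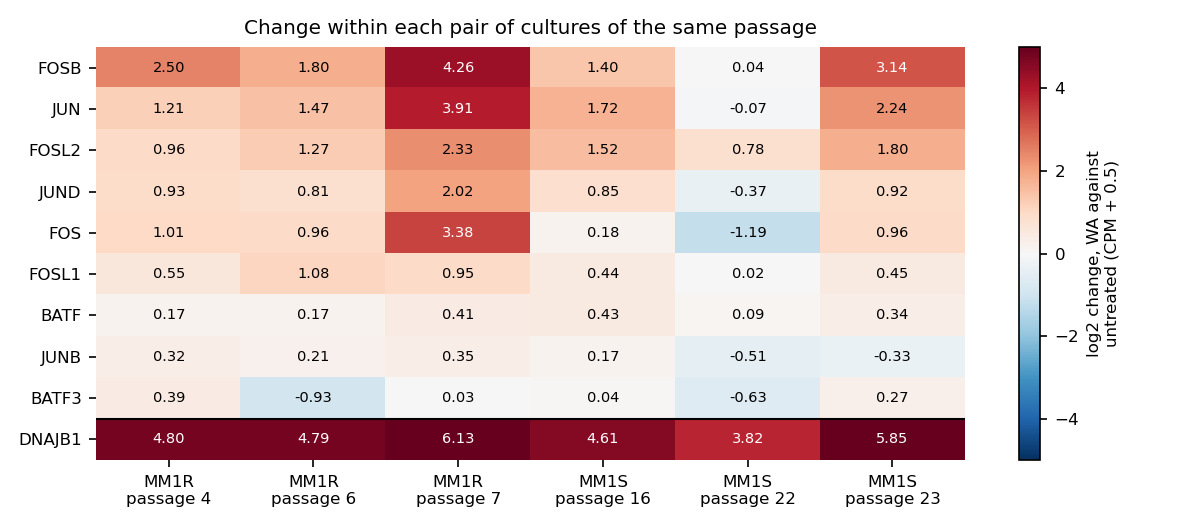
Log2 change of CPM + 0.5 between the WA and the untreated culture of each passage, for the 9 tested subunits and, below the line, for DNAJB1, a heat shock co-chaperone gene shown for comparison. Passage 22 of MM1S had values of -0.07 for JUN and 0.04 for FOSB beside 3.82 for DNAJB1, and passage 7 of MM1R had 3.91, 4.26 and 6.13.

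The question whether AP-1 subunits differ between glucocorticoid-resistant and -sensitive cells was addressed in untreated and in WA-treated cultures, called at an adjusted p under 0.01 and a log2 fold change over 1 in size. In untreated cells, where 1.48% of all tested genes were higher and 1.49% lower in MM1R, no subunit was called, and DESeq2 called 0. JUND (82.9 ± 17.0 CPM in MM1R and 121 ± 21.7 CPM in MM1S, SD, n = 3, log2 fold change -0.55, adjusted p = 0.16) and BATF (4.24 ± 0.785 and 2.77 ± 0.213 CPM, log2 fold change 0.61, adjusted p = 0.14) had an unadjusted p under 0.05 and groups without overlap. How many of all tested genes did so between the lines was not counted. These 2 are therefore not read as a result about the subunits. JUN (-0.60), FOS (-0.55) and FOSB (-0.62) had negative log2 fold changes with intervals that included 0.

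Under WA, 1.63% of all tested genes were higher and 1.41% lower in MM1R, and again no subunit was called, and DESeq2 called 0. JUNB (44.3 ± 0.950 CPM in MM1R and 33.7 ± 2.56 CPM in MM1S, SD, n = 3, groups without overlap, log2 fold change 0.40, adjusted p = 0.078) and BATF (0.56, adjusted p = 0.16) had an unadjusted p under 0.05. The shares of all tested genes with such a p or without overlap were not counted here either, so these 2 are not read as a result. FOSL2 had nearly equal means in both lines (50.4 ± 25.6 and 50.1 ± 20.2 CPM, log2 fold change 0.01, 95% confidence interval -0.64 to 0.66).

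The difference between the lines in the response to WA was tested as an interaction. Of all 14085 tested genes 0% were called by edgeR, and DESeq2 called 1 gene, no subunit. In edgeR 97 genes had an unadjusted p under 0.05, fewer than that limit gives when no gene differs. The fit held no block for passage, and its lack of calls does not show equal responses. Each subunit had an adjusted p of 1. JUNB (difference of log2 fold changes 0.54, 95% confidence interval 0.12 to 0.96, unadjusted p = 0.015) and JUND (0.76, 0.05 to 1.48, unadjusted p = 0.039) had intervals above 0. The differences of FOS (1.54, -0.78 to 3.86), FOSB (1.56, -0.30 to 3.42) and JUN (1.01, -0.52 to 2.53) had wide intervals, so that the calls made in MM1R and missed in MM1S do not show a difference between the lines.

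Per kb of exon, JUND, JUNB and JUN made up most of the AP-1 subunit RNA. The summed level of the 10 subunits was 112 ± 22.9 CPM per kb in untreated MM1S, 166 ± 52.2 in MM1S with WA, 83.9 ± 14.7 in untreated MM1R and 207 ± 75.3 in MM1R with WA (SD, n = 3). JUND held 56.5%, 53.9%, 51.1% and 51.2% of it in these groups. The JUN share was 13.5% and 11.8% in untreated MM1S and MM1R and 23.5% and 24.0% with WA. The JUNB share went from 19.5% to 12.1% in MM1S and from 24.0% to 12.6% in MM1R. JUNB lay above JUN in every untreated culture and JUN above JUNB in every WA culture. FOS (2.86% to 4.76% over the group means), BATF (2.38% to 5.70%) and FOSL2 (2.32% to 4.18%) followed, and their shares overlapped between cultures in most groups. FOSB stayed between 0.244% and 1.04% in spite of its fold change. These shares describe levels, were not tested and depend on the gene lengths of the annotation.

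**Figure D4:**
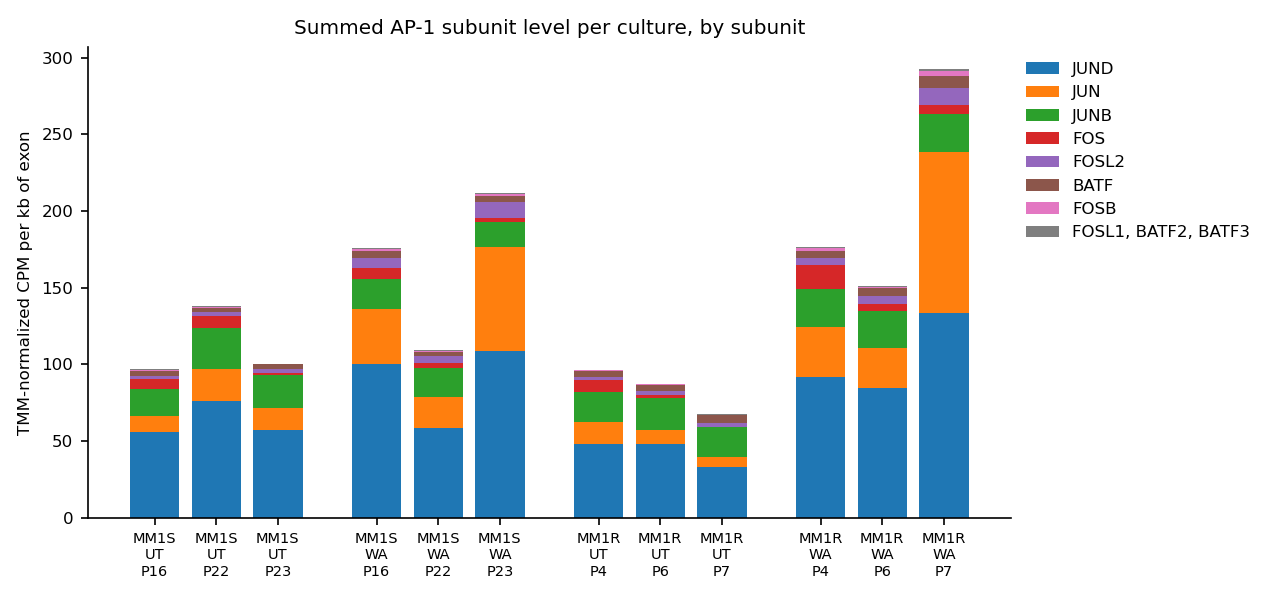
Summed level of the AP-1 subunits in each culture in TMM-normalized CPM per kb of exon, stacked by subunit (P, passage). The sum ranged from 67.7 to 138 in untreated cultures and reached 292 in the WA culture of passage 7 of MM1R, where JUN and JUND took the largest parts.

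Other genes of the AP-1 pathway were read from lists. Of 12 basic leucine zipper genes that pair with AP-1 subunits or share their sites, 11 were tested. In MM1R 4 of them rose and 1 fell, and in MM1S 3 rose and 1 fell (median log2 fold changes 0.65 and 0.92). The shares over all tested genes were 7.55% higher and 6.46% lower in MM1R, and 6.25% and 4.23% in MM1S. MAFG, a small MAF protein, rose by 0.73 on the log2 scale in MM1R and 0.92 in MM1S, MAFF by 1.19 and 1.14, and BACH1, a repressor that pairs with small MAFs, by 0.49 and 0.52. MAF, a plasma cell oncogene in myeloma, fell by 0.83 and 0.90 on the log2 scale. ATF3, a stress-induced partner of JUN, rose in MM1R (2.10, SE 0.55, adjusted p = 0.022) and had a log2 fold change of 1.74 in MM1S (SE 0.54, adjusted p = 0.057). The BATF partners went opposite ways in both lines, IRF4, also among the plasma cell markers, lower (-0.96 and -0.73, adjusted p = 0.0032 and 0.019) and IRF8 higher (0.67 and 0.70, adjusted p = 0.021 and 0.020).

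Of 25 kinases and factors of the JNK, ERK and p38 branches, SRF and its partners and CREB1, 23 were tested, and 1 rose and 2 fell in MM1R while 1 rose and 1 fell in MM1S (medians -0.13 and -0.09). Over all tested genes 7.55% were called higher and 6.46% lower in MM1R, and 6.25% and 4.23% in MM1S. CREB1, which binds cAMP response elements, rose by 0.37 and 0.42 on the log2 scale. MAP2K7, a kinase that phosphorylates JNK, fell by 0.55 and 0.40, and MAP2K4, another such kinase, had log2 fold changes of 0.04 and 0.20 and was not called. The 7 genes for turnover of JUN and FOS proteins (among them FBXW7, COP1 and ITCH, which mark them for degradation) were all tested and none was called in either line.

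Of 24 genes known as AP-1 targets, only 10 had reads enough to be tested, and the matrix metalloproteinase genes MMP1 and MMP3 had no read. In MM1R 3 rose and 1 fell, and in MM1S 1 rose and 1 fell (medians 0.17 and 0.06). For this list and the next, the shares over all tested genes were 7.55% higher and 6.46% lower in MM1R. In MM1S these shares were 6.25% and 4.23%. DUSP1, a phosphatase that switches off JNK and p38, rose in MM1R (log2 fold change 2.26, SE 0.48, adjusted p = 0.0076) and had 1.07 in MM1S (adjusted p = 0.18). VEGFA rose in both lines (1.19 and 0.97), PLAUR, the urokinase receptor, rose in MM1R (1.44), and CCND1, encoding cyclin D1, fell in both (by 1.39 and 0.79). Of 10 tested immediate early genes outside AP-1, 5 rose in MM1R (ZFP36, KLF6, NR4A1, IER5 and MCL1) and 4 of these, all but MCL1, in MM1S, whereas EGR1 had log2 fold changes of 1.17 (adjusted p = 0.36) and -0.76 (0.62).

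**Figure D5:**
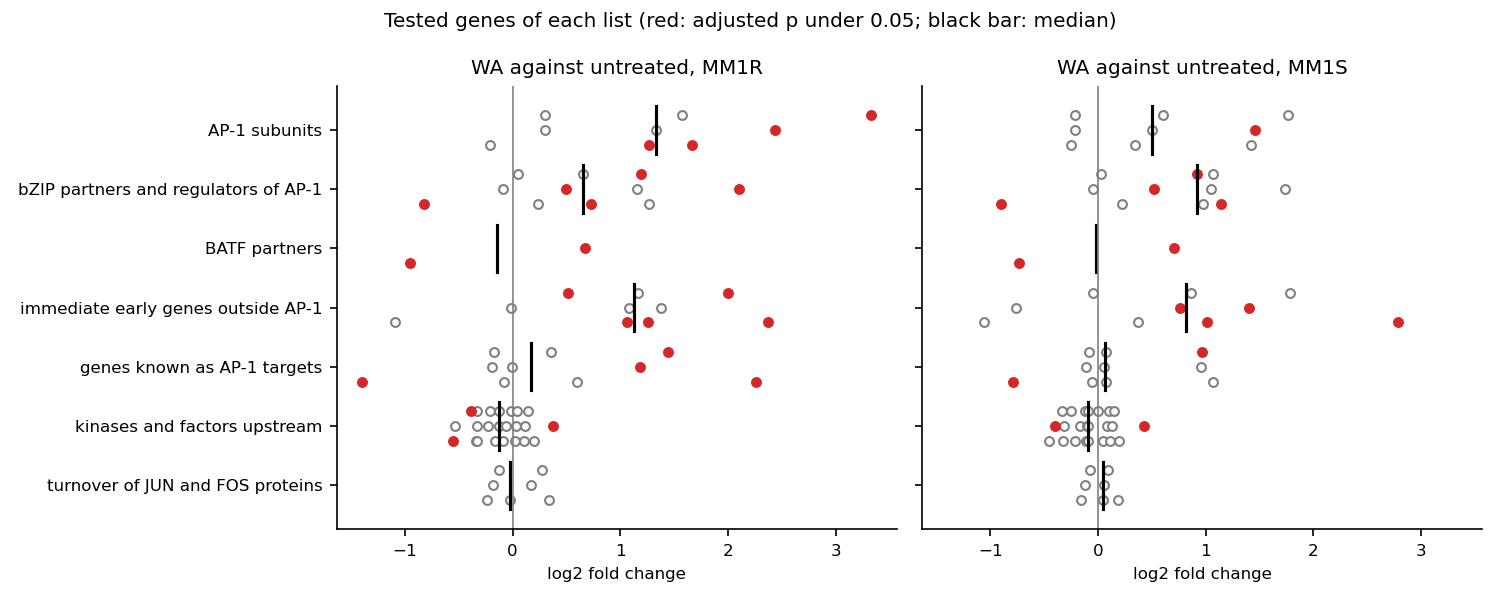
Log2 fold changes for WA against untreated cells in MM1R and MM1S, 1 point per tested gene of each list (red, adjusted p under 0.05) with the list median as a black bar. The medians were 1.33 in MM1R and 0.50 in MM1S for the AP-1 subunits, and -0.13 and -0.09 for the kinases and factors upstream.

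JUN, JUND, FOSB and FOSL2 varied together across the 12 cultures. Pearson correlations of log2(CPM + 0.5) were 0.96 between JUN and JUND, 0.95 between JUN and FOSL2, 0.91 between JUND and FOSB and 0.88 between JUND and FOSL2. They were 0.89 between JUN and FOSB and 0.83 between FOSB and FOSL2. FOSL1, at its few reads, had 0.75 to JUN, 0.69 to JUND, 0.73 to FOSB and 0.76 to FOSL2. FOS was less like JUN, JUND, FOSB and FOSL2, with 0.46 to JUN, 0.58 to JUND, 0.69 to FOSB and 0.24 to FOSL2, and JUNB had 0.26 to JUN and 0.34 to JUND. Among 12321 genes, those most like JUND were JUN, PRRC2A, ZNF212, KLF6 and DUSP10 (0.93 to 0.96). Those most like FOSL2 were UBE2D1, PPP1R15A, USPL1, TBPL1 and HSD17B7 (0.98 to 0.99), and those most like FOSB were DUSP1, LINC01004, TDRKH-AS1, LOC100287497 and C16orf54 (0.94 to 0.96). For JUN, chosen after its values were seen, they were DDIT3, PPP1R15A, KLF6, OTUD1 and C18orf25 (0.96 to 0.98). All points share the treatment and the libraries, and with Spearman correlation 3, 2, 1 and 1 of the 5 genes were again among those most like JUND, FOSL2, FOSB and JUN.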

How the data were processed

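RNA from 12 cultures (RNeasy, library preparation at BGI) was measured. The authors deposited raw counts per gene, made with STAR 2.7.3a on hg19 after FastQC 0.11.5, and a table normalized with DESeq2 that was not used here. Gene models and strand setting of the counting are not given in the sources used here. Total counts were 17625110 to 19368343 per culture, and floors of 3 reads cover counting error only.

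Groups and passages came from the labels. Genes were filtered with filterByExpr (minimum count 10), scaled with TMM and tested in 1 fit of the 4 groups with the quasi-likelihood test of edgeR 4.0.16 (R 4.3.3, limma 3.58.1), with Benjamini-Hochberg adjustment over 14085 genes and limits of 0.05 for WA and the interaction, and 0.01 with a log2 fold change of 1 between lines. The scripts were tested on simulated data. Changes within pairs used CPM with a pseudocount of 0.5. The untreated and WA cultures of a passage number deviated together from their group means (r = 0.22 to 0.74 in all 6 pairs) and were taken as pairs. Cultures of unlike passage had r of -0.65 to 0.42. In MM1S, untreated passage 23 with WA passage 22 (0.42) and untreated 22 with WA 23 (0.35) exceeded passage 22 with itself (0.26). The check therefore does not single out the passage 22 cultures as a pair. Counts of replicates differed by 8.74 to 48.7 times what counting error gives (chi-square divided by its degrees of freedom).

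All 10 subunits are named, up to 5 called genes of each list by smallest p, and the 5 genes most like each of the 3 subunits with the smallest p, of at least 1 CPM. EGR1, and list members given as not called, were named after their values were seen, and 1 called gene of the upstream list is not reported here. Members and lists were chosen with earlier results of these data known. Lengths and coordinates are those of GENCODE on GRCh37, promoters those of RefSeq.

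Alternatives were DESeq2 1.42.0 and its size factors, other filters, fewer libraries, the replicate block, a pseudocount of 2, MANE transcript lengths and Spearman correlation. Leaving out both cultures of passage 7 or 22 was added after seeing the data.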

Additional observations from a re-analysis of the deposited data

How the results depend on the processing

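FOSL2 stayed called with WA in both lines under all alternatives run (log2 fold change 1.17 to 1.90 in MM1R and 1.10 to 1.71 in MM1S). The subunits called in MM1R numbered 4 and went from 4 to 5 when each library was left out, but were 1 without both passage 7 cultures, a fit with fewer samples. In MM1S the count was 1, and 1 to 4 when each library was left out. It was 2 without the passage 7 cultures of MM1R (JUN and FOSL2), 2 without the passage 22 cultures of MM1S (JUND and FOSL2), and 2 with the replicate block in edgeR (FOSB and FOSL2). Without a filter, 4 subunits were called in MM1S and 2, JUN and FOS, for the difference between lines. That fit held 26497 genes, and its prior degrees of freedom went from 5.85 to infinite, so that all genes took the spread of 1 common trend. With the replicate block, MM1R gave 6 calls in edgeR and 5 in DESeq2, and no call was lost, but DESeq2 called neither FOSL1 in MM1R nor FOSB in MM1S there. The counts between lines were 0 under all alternatives.

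No called change reversed. Without the passage 7 cultures, log2 values that reversed were -0.45 (JUN) and -0.46 (FOSL2) between lines under WA, and -0.068 (JUN), -0.28 (FOSL2) and -0.10 (BATF3) for the difference between lines. Without the passage 22 cultures they were 0.37 (FOS) and 0.25 (BATF3) for WA in MM1S, 0.030 (JUNB) and 0.074 (BATF3) between untreated lines, -0.017 (JUND) and -0.23 (FOSL2) between lines under WA, and -0.052 (FOSL2) and -0.46 (BATF3) for the difference. FOSL2 was -0.011 between lines under WA without a filter. BATF3 was -0.045 for the difference with the replicate block in edgeR and -0.15 in DESeq2. The cause was not tested. With each library left out, values that crossed 0 ranged as follows. Between lines under WA they were -0.45 to 0.96 for JUN, -0.018 to 0.38 for JUND, -0.46 to 0.36 for FOSL2 and -0.70 to 0.15 for BATF3. Between untreated lines they were -0.29 to 0.030 for JUNB, -0.98 to 0.13 for FOSL1 and -0.49 to 0.074 for BATF3. For WA in MM1S they were -0.80 to 0.19 for FOS and -0.44 to 0.12 for BATF3, and for WA in MM1R -0.65 to 0.20 for BATF3. For the difference they were -0.26 to 0.56 for FOSL2, -0.29 to 0.11 for BATF and -0.44 to 0.42 for BATF3. FOSB could not be tested with at least 10 reads in every library. FOSL1 and BATF3, with at most 28 and 23 reads, are limited by depth.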

Other observations

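The changes of JUN, JUNB, JUND, FOS, FOSB and FOSL2 within a passage were set beside those of DNAJB1, a heat shock co-chaperone gene, over the 6 pairs. This comparison was chosen after the values were seen, and FOSL1, BATF and BATF3 were left out of it. The changes of DNAJB1 were 4.80, 4.79 and 6.13 in passages 4, 6 and 7 of MM1R and 4.61, 3.82 and 5.85 in passages 16, 22 and 23 of MM1S on the log2(CPM + 0.5) scale. FOSB had the same order of pairs (Pearson r = 0.966, exact permutation p = 0.0028, adjusted p = 0.017 over 6 subunits, Spearman rho = 1, exact p = 0.0028, adjusted p = 0.017), the smallest p that 6 pairs can give, and r was 0.951 without the 2 pairs farthest from the median of DNAJB1. JUN followed with r = 0.927 (exact permutation p = 0.017, adjusted p = 0.023, rho = 0.771, exact p = 0.10, adjusted p = 0.12, and r = 0.901 without those 2 pairs). FOSL2 had r = 0.902 (exact permutation p = 0.017, adjusted p = 0.023, rho = 0.771, exact p = 0.10, adjusted p = 0.12), which was 0.586 without those 2 pairs and thus rests on them. FOS had r = 0.878 (exact permutation p = 0.014, adjusted p = 0.023, rho = 0.829, exact p = 0.058, adjusted p = 0.12) and JUND r = 0.871 (exact permutation p = 0.019, adjusted p = 0.023, rho = 0.886, exact p = 0.033, adjusted p = 0.10), and both were 0.98 without those 2 pairs. JUNB had r = 0.347 (exact permutation p = 0.47, rho = 0.657, exact p = 0.18), and r was 0.991 without those 2 pairs. Both changes of a pair come from the same libraries, and 3 pairs per line are too few to repeat the relation within a line. The permutations also treated the 6 pairs of both lines as exchangeable. Because DNAJB1 was picked from these same data, the p-values describe these pairs and do not test the relation.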
